A study of Mus musculus with 50 samples.

Results

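The transcripts described here are those of 49 genes of the cell division cycle and of DNA replication, among 55487 genes counted in mouse frontal cortex. They were taken as a list by symbol, each matched to its gene identifier in the GENCODE vM21 annotation, and all 49 were found and were among the 16330 protein-coding genes with enough counts to be tested. The list holds the proliferation markers Mki67 and Top2a. It holds the cyclins and their kinases Ccna2, Ccnb1, Ccnb2, Ccnd1, Ccne1, Ccne2, Cdk1 and Cdk2, and the regulators E2f1, E2f8, Cdc25b, Cdc25c and Chek1. The replication genes are Cdc6, Cdt1, Mcm2, Mcm3, Mcm4, Mcm5, Mcm6, Mcm7, Mcm10, Gins1, Gins2 and Pcna, with Rrm1, Rrm2 and Tyms of deoxynucleotide synthesis. Mitotic members are Aurka, Aurkb, Plk1, Plk4, Cdc20 and Ube2c, the kinetochore and checkpoint genes Bub1, Bub1b, Bub3, Cenpa, Cenpe, Cenpf and Birc5, and the spindle genes Kif11, Kif20a, Kif23, Nusap1, Tpx2 and Hmmr.

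The study compared wild-type (WT) mice with Setd1a+/- mice, which carry 1 loss-of-function copy (allele tm1d, made by a knockout-first design) of the gene for a histone H3 lysine 4 methyltransferase, to ask how frontal cortical transcripts depend on that gene through development. Both genotypes were taken at E14 and E18 (embryonic days) and at P7, P35 and P70 (postnatal days), with 5 mice in each of the 10 groups, giving 50 libraries of poly-A RNA. No group received a treatment, and the allele is present in every cell of the animal. The labels give the strain as C57BL/6NTac, the methods of the study a mixed C57BL/6NTac and C57BL/6J background and male animals. Each label names a separate sample, and the p-values measure the spread between these mice.

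In a dividing cell, a wave of E2F-driven transcription in late G1 supplies the replication machinery, and a later wave in G2 supplies the proteins that condense, attach and separate the chromosomes. In the developing cortex the dividing cells are radial glia and intermediate progenitors, and neurons leave the cycle for good as they are born. After birth the main dividing cells of the cortex belong to the glial lineages.

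Promoters of such genes are known for CCAAT boxes, for the TTTGAA core of the cell cycle homology region, and for E2F sites. Both strands of the 300 bases from 250 before to 50 after the transcription start were searched in the RefSeq promoter table (GRCm38.p6), which held 39 of the 49 genes. It held none for Ccna2, Ccne2, Ccnd1, Cdc25c, Mcm4, Gins1, Gins2, Aurkb, Kif20a and Tpx2. CCAAT was present in 30 of the 39 promoters (76.9%), against 41.1% of all promoters in the table. TTTGAA was present in 17 (43.6%), against 20.2%. An E2F-type word (TTTCCCGC, TTTCGCGC, TTTGCCGC or TTTGGCGC) was present in 8 (20.5%), against 2.60%, and these were the promoters of Cdk1, Cdk2, Cdc6, Cdt1, Mcm3, Mcm5, Mcm6 and Mcm7. Cdk1 alone held all 3 kinds, 21 promoters held 2, 10 held 1, and 7 held none, those of Ccne1, E2f1, Chek1, Tyms, Plk4, Birc5 and Nusap1. In the window that starts 100 bases before the start, the counts were 26 for CCAAT (66.7%, against 26.3% of all promoters), 17 for TTTGAA (43.6%, against 9.23%) and 4 for the E2F type (10.3%, against 1.45%). A match is a string of letters and was not tested as a binding site.

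For each kind, the printed promoters are the ones whose genes had the highest wild-type level at E14, so that the words can be seen in place. Each runs 5′ to 3′ on the strand of the gene and ends at the base before the transcription start, and capitals mark every match to any of the 3 kinds on either strand (ATTGG and TTCAAA are CCAAT and TTTGAA read on the opposite strand, and GCGGGAAA and GCGCCAAA are the reversed TTTCCCGC and TTTGGCGC). Pcna lies on the minus strand (chr2:132253181-132253330), Rrm2 on the plus strand (chr12:24708104-24708253), Cdc20 on the minus strand (chr4:118437344-118437493), Top2a on the minus strand (chr11:99024190-99024426), Mcm7 on the minus strand (chr5:138171884-138172058) and Mcm5 on the plus strand (chr8:75109346-75109508).
Pcna: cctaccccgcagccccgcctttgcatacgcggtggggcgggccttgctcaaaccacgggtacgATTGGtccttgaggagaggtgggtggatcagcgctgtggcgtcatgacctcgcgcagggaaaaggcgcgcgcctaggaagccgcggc
Rrm2: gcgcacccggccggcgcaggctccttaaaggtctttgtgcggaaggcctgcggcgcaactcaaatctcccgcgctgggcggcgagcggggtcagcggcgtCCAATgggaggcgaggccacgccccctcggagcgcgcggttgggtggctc
Cdc20: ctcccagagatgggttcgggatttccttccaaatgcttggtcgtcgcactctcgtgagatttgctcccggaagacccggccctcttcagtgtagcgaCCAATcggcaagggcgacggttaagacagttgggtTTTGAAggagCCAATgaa
Top2a: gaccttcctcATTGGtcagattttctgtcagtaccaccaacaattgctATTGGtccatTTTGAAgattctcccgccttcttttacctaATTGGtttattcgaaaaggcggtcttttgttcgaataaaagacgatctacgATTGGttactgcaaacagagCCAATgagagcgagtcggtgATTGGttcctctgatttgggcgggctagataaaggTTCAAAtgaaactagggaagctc
Mcm7: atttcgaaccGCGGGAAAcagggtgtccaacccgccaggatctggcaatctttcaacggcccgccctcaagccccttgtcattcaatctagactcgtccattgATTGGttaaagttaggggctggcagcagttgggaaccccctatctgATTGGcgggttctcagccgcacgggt
Mcm5: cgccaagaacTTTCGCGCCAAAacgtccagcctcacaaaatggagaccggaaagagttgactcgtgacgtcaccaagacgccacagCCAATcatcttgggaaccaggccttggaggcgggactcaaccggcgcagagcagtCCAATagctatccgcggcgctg

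In Mcm5 an E2F-type word on the forward strand and another on the reverse strand overlap in 1 run of capitals. Top2a carried 6 CCAAT matches and 2 TTTGAA matches before its start, and Cdc20 carried TTTGAA between a pair of CCAAT matches. The genes with a TTTGAA match fell by a median of 5.26 on the log2 scale between E14 and P70 in wild type, and those without by 4.17. For CCAAT the medians were −5.08 in the 30 genes with a match and −4.14 in the 9 without, and for the E2F type −4.26 in 8 and −5.01 in 31, with ranges that overlapped for every kind.

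Library totals ran from 35507165 to 43907318 counts. Setd1a itself passed as lower in Setd1a+/- at no age (edgeR), so that its level does not check the genotype labels, and counts per exon were not analysed here. Its level was 118.96 to 136.49 CPM (counts per 1000000 of the library) in wild type and 127.87 to 150.19 CPM in Setd1a+/- at E14, with overlap, and 70.2 to 76.2 CPM against 76.4 to 83.7 CPM at P7, without overlap. Over all ages it was 0.10 ± 0.03 (SE) higher on the log2 scale in Setd1a+/- (edgeR, adjusted p = 0.00679). Markers of postmitotic neurons were high in all libraries, with sums of 3593 CPM or more. In 2 wild-type libraries of the male series, E14 replicate 5 and E18 replicate 2, Xist had over 1000 counts. Another library, replicate 2 of wild type at P7, was unlike the 9 others of its age. Its choroid plexus markers summed to 610.1 CPM, against 1.83 to 3.32 in the others. A list of 12 cerebellar genes chosen after the values had been seen summed to 1576 CPM there, against 139 to 177, with En2 at 54.6 CPM against at most 0.21. Results that rest on this library are given with and without it. Other libraries were high in several marker lists. At E14, endothelial and pericyte markers summed to 922 CPM in Setd1a+/- replicate 2, against 191.6 to 348 CPM in the 9 others, and its meningeal markers to 886 CPM, against 6.08 to 293 CPM, and its microglia (103.8 CPM) and oligodendrocyte precursor markers (121.9 CPM) were also the highest of that age. At E18, choroid plexus markers summed to 228 and 183 CPM in wild-type replicates 3 and 4, against 1.09 to 7.51 CPM in the 8 others. The same 2 libraries were the highest of E18 in endothelial and pericyte markers (598 and 528 CPM against at most 419) and in erythroid markers (366 and 444 CPM against at most 228).

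The summed level of the 49 genes fell at each of the steps up to P35 and lay at about the same level at P70. At E14 the wild-type libraries held 4028, 3187, 4092, 4443 and 5072 CPM and the Setd1a+/- libraries 4677, 3712, 3464, 4309 and 4724 CPM. At E18 the wild-type sums were 1470.1, 1605, 1499, 1196 and 1548 CPM, so that no library of E18 reached any of E14. At P7 the wild-type sums were 548, 1342.5, 587, 623 and 561 CPM. The highest of these is replicate 2, and the other 9 libraries of P7, with 543 to 637 CPM, were all below the lowest of E18. At P35 and P70 the 20 libraries lay between 396 and 439 CPM and those of the 2 ages overlapped. In bulk tissue, fewer cells of a type and less RNA per cell cannot be told apart.

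**Figure D1:**
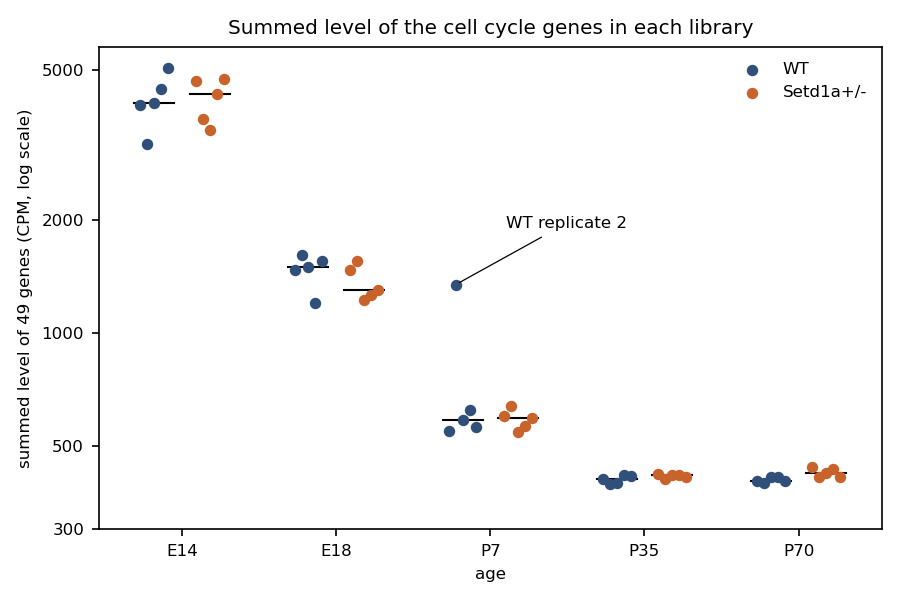
Summed level of the 49 cell cycle genes in each library (CPM, log scale) by age, with 1 point per mouse, WT in blue, Setd1a+/- in orange and a black line at each group's median. Sums fall from between 3187 and 5072 at E14 to between 396 and 439 at P35 and P70, the genotypes overlap at each age, and WT replicate 2 at P7 lies at 1342.5 among libraries of 543 to 637.

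The E14 libraries also differed among themselves, with the highest wild-type sum 1.59 times the lowest. Replicate 5, the highest at 5072 CPM, had the lowest neuron marker sum of its group (3593 CPM). It is also 1 of the 2 libraries with over 1000 Xist counts. Replicate 2, the lowest at 3187 CPM, had the highest neuron marker sum (5387 CPM). The radial glia markers were 1209 CPM in replicate 5 and 905 CPM in replicate 2. Choroid plexus markers, which ran from 0.53 to 445 CPM over the 10 libraries of E14, were at 378 CPM in replicate 5 and 18.6 CPM in replicate 2, meningeal markers at 209 and 18.1 CPM, and erythroid markers at 1027 and 322 CPM. The part of these differences in the spread of the members was not tested.

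From E14 to E18, all 49 genes fell in wild type (edgeR's quasi-likelihood test, adjusted p under 0.05), where 34.1% of all tested genes fell. The median change was −1.62 on the log2 scale, from −2.08 for Cdc25c, a phosphatase that activates Cdk1, to −0.62 for Bub3, a spindle checkpoint protein. From E18 to P7, 45 fell, against 33.4% of all genes, and Ccne1 and E2f1 rose, against 33.9%, with a median of −1.16. From P7 to P35, 42 fell, against 34.3% of all genes, and Ccne1 and Ccnd1 rose, against 32.6%, with a median of −1.82. The medians of all tested genes at these steps were −0.011, 0.0012 and −0.015. Without wild-type replicate 2 at P7 the step into P7 had 46 lower, against 34.3% of all genes in that fit, and 1 higher (Ccne1). Its median was −1.61. The step out of P7 had 42 lower, against 32.9%, and 5 higher (Ccne1, Ccnd1, Gins2, Ccne2 and Bub3), with a median of −1.32. In either direction 67.3% and 66.15% of all genes passed at these steps. From P35 to P70 none passed the threshold in either direction with edgeR, DESeq2 or limma-voom, against 0.527% of all genes called lower. At an unadjusted p under 0.05, 7 were lower at P70, against 5.34% of all genes, namely Top2a, Cdk2, Cenpf, Ccnb1, Aurkb, Birc5 and Cdc20. When the libraries with Xist counts and replicate 2 of P7 were left out together, Top2a, Ccnb1, Cdc20 and Cenpf passed at this step, as did 299 of all 16382 genes tested in that fit. In Setd1a+/- no member passed from P35 to P70 with edgeR or limma-voom, against 2.98% of all genes with edgeR, and DESeq2 called Cenpe and Cenpf lower. At an unadjusted p under 0.05 (edgeR), Top2a, Cenpe and Cenpf were lower, against 8.35% of all genes, and Ccnd1 and Gins2 higher, against 7.81%. With the same 3 libraries left out, none of them of these groups, Mki67, Top2a, Cenpe and Cenpf passed as lower and Ccnd1 as higher, as did 798 of the 16382 genes in either direction. Neighbouring steps share the libraries of the age between them.

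Over the whole span from E14 to P70, 48 of the 49 genes fell in wild type, against 42.9% of all genes, and Ccne1 alone rose, against 42.8%. The median change was −4.71. In Setd1a+/- cortex the same steps gave 49 lower from E14 to E18 (against 32.5% of all genes), 46 lower from E18 to P7 (against 35%), 40 lower from P7 to P35 (against 33.3%) and 48 lower from E14 to P70 (against 43%). The medians there were −1.82, −1.43, −1.27 and −4.66.

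Mki67, a protein that coats mitotic chromosomes, and Top2a, the topoisomerase that untangles replicated chromosomes, fell most as a group (median −6.95). The level of Top2a was 39.5, 31.4, 41.6, 43.5 and 49.2 RPKM (CPM per kilobase of exon) in the wild-type libraries of E14 and 0.342, 0.304, 0.155, 0.329 and 0.348 RPKM at P70. It was 138-fold lower at P70 (log2 change −7.11 ± 0.32 SE, edgeR adjusted p = 1.07e-24), with mean levels at E18, P7 and P35 of 26.1%, 5.77% and 1.25% of E14, the P7 value taken without replicate 2. Each of these ages was below the one before it with no overlap, apart from that replicate, which had 9.47 RPKM beside 2.07 to 2.95 RPKM.

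Among the cyclins and their kinases the change ran from a 135-fold fall to a rise. Ccnb1, the mitotic cyclin that drives entry into M phase with Cdk1, had 19.8, 15.02, 19.1, 23.4 and 26.9 RPKM in wild type at E14 and 0.235, 0.181, 0.0774, 0.127 and 0.149 RPKM at P70 (log2 change −7.08 ± 0.34 SE, edgeR adjusted p = 1.38e-23). Ccna2, the cyclin of S phase and G2 and the most abundant of the group at E14, fell from a mean of 31.5 ± 6.07 (SD, n = 5) to 2.24 ± 0.285 RPKM (log2 change −3.81 ± 0.18 SE). Of its exonic bases, 12.5% are shared with Exosc9, and the counts could not separate the 2 genes there.

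The G1 cyclins moved otherwise. Ccne1, a cyclin E that opens S phase with Cdk2, had 4.14, 2.92, 4.17, 3.64 and 5.47 RPKM in wild type at E14, fell to 2.13 to 2.86 RPKM at E18, and reached 5.69, 5.05, 5.44, 6.34 and 6.24 RPKM at P70. It was higher at P70 than at E14 by 0.50 ± 0.12 (SE) on the log2 scale (edgeR adjusted p = 0.000152), with 1 library of E14 inside the P70 range. In Setd1a+/- the rise was 0.49 ± 0.12 (SE), with levels of 3.44 to 4.68 RPKM at E14 and 5.23 to 6.55 RPKM at P70.

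Ccnd1, the cyclin D through which growth signals reach the cycle, had 21.9, 12.8, 21.02, 23.6 and 29.6 RPKM at E14, 8.97 to 12.2 RPKM at P7 and 14.1, 14.4, 18.7, 12.7 and 13.4 RPKM at P70 in wild type. It fell by 0.57 ± 0.13 (SE) on the log2 scale over the span (edgeR adjusted p = 0.000151) but rose by 0.40 from P7 to P35 and was next to Pcna in level among the members at P70. Of its exonic bases 23.4% overlap those of another gene. Ccne2, the other cyclin E, kept 42.01% of its E14 level at P70, with 17.4% of its exonic bases shared with Ints8. Shares between 11.2% and 22.8% also applied to E2f8, Mcm7, Cdc25c and Ube2c.

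**Figure D2:**
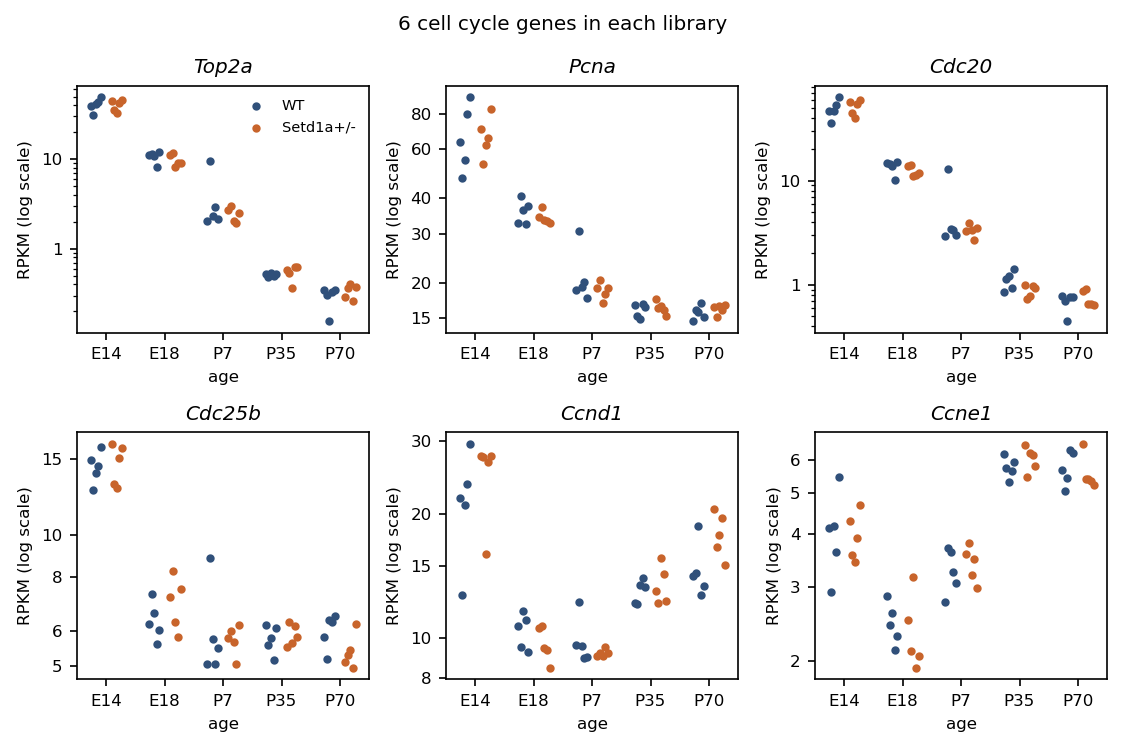
Level of 6 cell cycle genes (RPKM, log scale, a separate axis for each gene) by age, with 1 point per mouse, WT in blue and Setd1a+/- in orange. Top2a, Pcna and Cdc20 fall through P35, Ccnd1 is lowest around E18 and P7, and Ccne1 at P35 and P70 lies above its E18 and P7 levels. The WT group means of Cdc25b from E18 on lie between 37.2% and 44.3% of its WT E14 mean (P7 without replicate 2), and single mice spread more widely.

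In the group of E2F factors, Cdc25 phosphatases and the checkpoint kinase Chek1 (median −3.74), E2f1 and Cdc25b kept the most. Cdc25b, the phosphatase that starts Cdk1 activation, had 14.9, 12.7, 13.9, 14.4 and 15.9 RPKM at E14, 5.60 to 7.33 RPKM at E18 and 5.83, 5.19, 6.38, 6.31 and 6.53 RPKM at P70 in wild type. It stood at 44.3%, 37.2% (without replicate 2), 40.2% and 42.1% of E14 at the later ages in turn. The step from E18 to P7 did not pass with all libraries (log2 change −0.074, edgeR adjusted p = 0.545) and passed as lower without replicate 2 (−0.25, adjusted p = 0.0119). E2f1, an activator of the G1 to S wave, had 38.96%, 46.1%, 43.3% and 40.7% of its E14 level at E18, P7 (without replicate 2), P35 and P70, whereas E2f8, a repressor of the same targets, was at 2.23% by P70.

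The 12 genes of origin licensing and the replication fork fell by a median of 4.26 on the log2 scale. Pcna, the sliding clamp of the polymerases and the most abundant member at E14, had 63.8, 47.3, 54.8, 80.3 and 91.8 RPKM there in wild type and 14.6, 15.99, 15.7, 16.97 and 15.2 RPKM at P70. That is a 4.31-fold fall (log2 change −2.11 ± 0.12 SE, edgeR adjusted p = 2.72e-20), and Pcna was again the most abundant member at P70. GENCODE vM21 names pseudogenes of Pcna, Ccnb1, Ccnb2 and Tyms, and how many reads they share with these 4 genes was not measured. The copy of Ccnb2 was given 92 to 496 counts per library. The Mcm2 to Mcm7 helicase genes ended between 3.09% (Mcm3) and 12.6% (Mcm4) of E14. Gins2, a subunit of the same helicase, kept 29.4%, but 67.3% of its exonic bases are shared with Gse1.

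Rrm2, the ribonucleotide reductase subunit made in S phase, had 54.3, 39.3, 52.7, 65.6 and 71.9 RPKM at E14 in wild type and 0.851, 1.10, 0.793, 1.02 and 0.817 RPKM at P70, a 61.8-fold fall (log2 change −5.95 ± 0.21 SE, edgeR adjusted p = 1.05e-28). Its partner Rrm1 kept 9.97% of E14, and Tyms, the thymidylate synthase, kept 4.62%.

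The 6 mitotic kinases and partners of the anaphase-promoting complex fell by a median of 5.65. Cdc20, which activates that complex, had 46.2, 36.002, 46.7, 53.5 and 63.4 RPKM at E14 in wild type and 0.779, 0.696, 0.445, 0.755 and 0.759 RPKM at P70 (71.3-fold lower, log2 change −6.16 ± 0.30 SE). Aurkb and Ube2c ended at 0.793% and 0.818% of E14, while Plk4, the kinase of centriole duplication, kept 14.7%.

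Of the kinetochore and checkpoint genes (median −5.59), Bub1, a checkpoint kinase, fell 139-fold, a change within its SE of those of Top2a and Ccnb1. It had 8.59, 7.48, 9.99, 10.3 and 12.1 RPKM at E14 in wild type and 0.0535, 0.0714, 0.0341, 0.0389 and 0.144 RPKM at P70 (log2 change −7.12 ± 0.36 SE, edgeR adjusted p = 1.83e-22), where it rested on 5 to 23 counts per library, and with 1 library left out at a time the change ran from −7.59 to −6.96. Bub1b, the related checkpoint protein and the most abundant of the group at E14, fell from 20.3 ± 3.10 (SD, n = 5) to 0.528 ± 0.0841 RPKM. Bub3 fell least, with 13.5, 12.1, 12.3, 14.4 and 15.2 RPKM at E14 and 7.64, 7.98, 7.64, 8.14 and 8.41 RPKM at P70 (log2 change −0.76 ± 0.05 SE), and its groups did not overlap. The spindle genes fell by a median of 4.98, and Tpx2, which brings Aurka to the spindle, fell from 26.0 ± 4.23 (SD, n = 5) to 0.611 ± 0.0969 RPKM. Kif20a kept 17.1%, with 29.3% of its exonic bases shared with Cdc23.

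At E14 every member had a wild-type mean of at least 1 RPKM, from 3.20 (Mcm10) to 67.6 (Pcna), and the neighbours in the order Pcna 67.6 ± 18.3, Rrm2 56.7 ± 12.6, Cdc20 49.2 ± 10.1 and Mcm7 44.5 ± 5.02 RPKM (SD, n = 5) lay within their spread of one another. At P70, 15 of the 49 had a wild-type mean of at least 1 RPKM, led by Pcna 15.7 ± 0.897, Ccnd1 14.7 ± 2.35, Gins2 9.09 ± 1.00, Bub3 7.96 ± 0.332, Cdc25b 6.05 ± 0.544, E2f1 5.81 ± 0.745 and Ccne1 5.75 ± 0.540. The last 3 lay within their spread of one another. Relative to E14, the median member stood at 32.5% at E18, 10.6% at P7 (14.7% with replicate 2), 4.10% at P35 and 3.80% at P70 in wild type, and at 28.4%, 10.8%, 4.58% and 3.94% in Setd1a+/-. In wild type 38 members were under 10% of their E14 level at both P35 and P70.

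**Figure D3:**
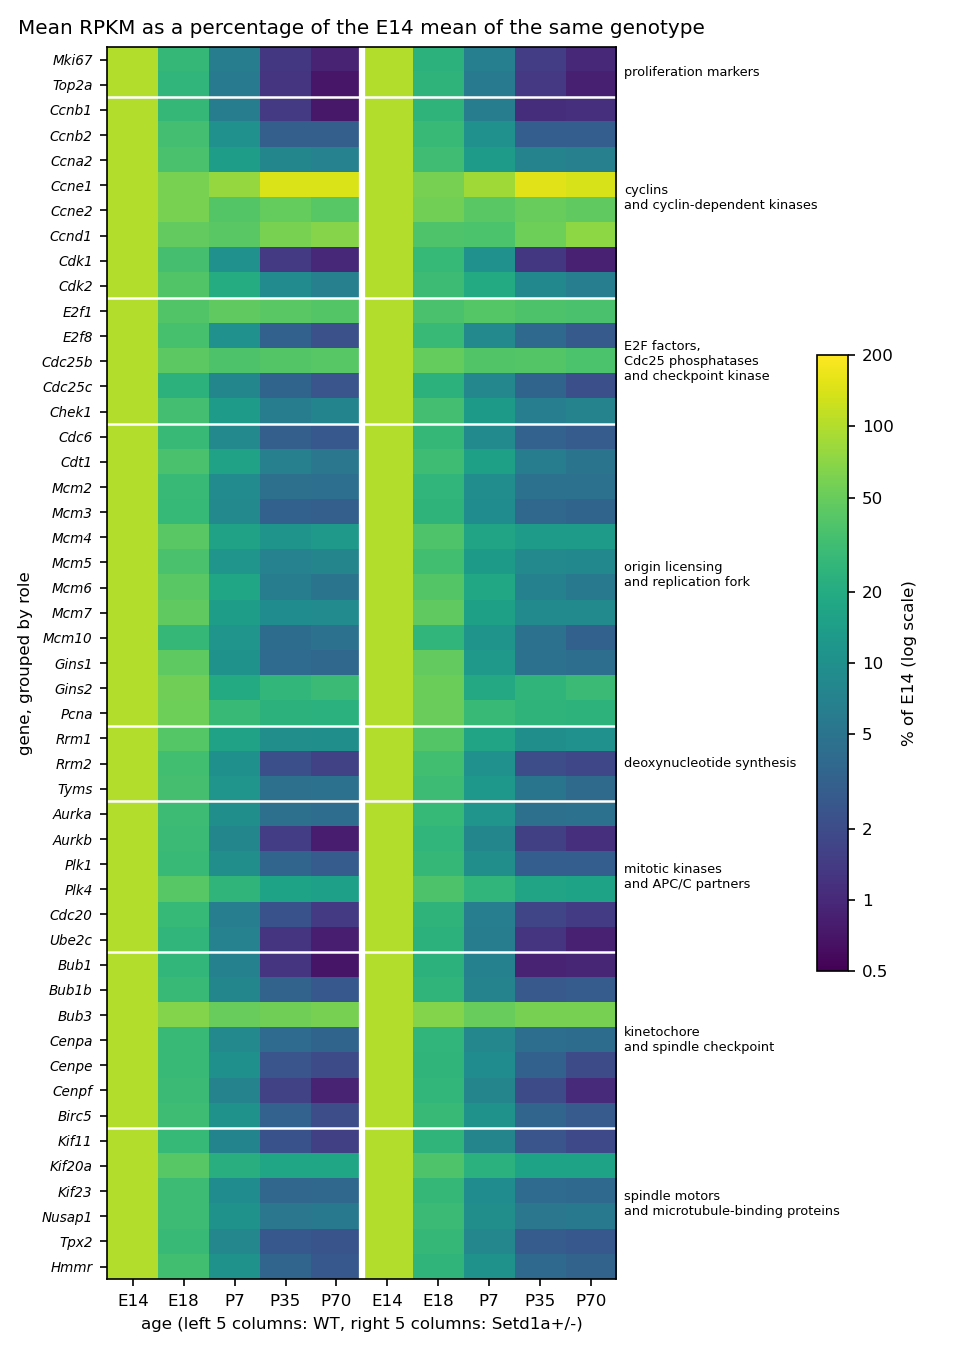
Mean RPKM of each gene at each age as a percentage of its E14 mean in the same genotype (colour, log scale), with WT in the left 5 columns, Setd1a+/- in the right 5, genes grouped by role and the P7 WT mean taken without replicate 2. Most genes darken in steps to a median of 3.80% (WT) and 3.94% (Setd1a+/-) at P70, while Ccne1 rises above 100% and Ccnd1 and Bub3 are above 50% at P70.

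Of 114 other cell cycle genes, a list that holds no member, 113 were tested. From E14 to P70 in wild type 104 fell, against 42.9% of all genes, 8 rose, against 42.8%, and 1 did not pass. The median was −3.08, beside −4.71 in the members and −0.0019 over all tested genes. The 8 that rose were the cyclin-dependent kinase inhibitors Cdkn1a, Cdkn2b and Cdkn2d, the retinoblastoma relative Rbl2, the clamp loader subunit Rfc5, and Cit, Pttg1 and Zwint, of which Pttg1 is the securin and Cit a kinase of cytokinesis. By list, the medians were −1.86 for 15 genes of origin recognition, licensing and firing, −2.45 for 28 of the polymerases, clamp loader and lagging strand, −2.41 for 17 G1 cyclins, kinases and retinoblastoma family genes, −0.72 for 6 inhibitors of cyclin-dependent kinases, −3.49 for 16 of G2/M control and the anaphase-promoting complex, and −4.31 for 31 of the kinetochore, condensin and cytokinesis.

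Between the genotypes, with age as a covariate, no member passed (edgeR, adjusted p under 0.05), where 4.43% of all tested genes did. At an unadjusted p under 0.05, 6 members were lower in Setd1a+/- (Ccnb2, E2f1, Mcm10, Cdk2, Bub1b and Cdk1) and none higher, against 14.5% of all genes in either direction. DESeq2 and limma-voom also called no member, here or in any genotype or interaction test below. The median of the 49 was −0.11 on the log2 scale with 46 below 0, and that of all genes 0.0012. Without wild-type replicate 2 of P7 it was −0.0073, with 27 below 0 and 2 members at an unadjusted p under 0.05, Ccnb2 and E2f1. Among the other cell cycle genes, Orc5, a subunit of the origin recognition complex, was called lower (−0.18 ± 0.03 SE, edgeR adjusted p = 0.000109), and it was the single one of 113.

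Ccnb2, a B-type mitotic cyclin, had the smallest p of the members. Its wild-type levels at E18 were 9.099, 8.77, 9.25, 7.01 and 8.105 RPKM and its Setd1a+/- levels 6.52, 7.88, 6.58, 5.78 and 6.26 RPKM, with overlap. Over all ages the difference was −0.31 ± 0.10 (SE) on the log2 scale (edgeR adjusted p = 0.0846), and without replicate 2 of P7 it was −0.20 (adjusted p = 0.123). It passed the threshold only when replicate 2 of wild type at E14 was left out (adjusted p = 0.0409).

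E2f1 differed by −0.17 ± 0.06 (SE) over all ages (edgeR adjusted p = 0.0901). At P35 its wild-type levels were 7.34, 6.82, 5.19, 5.49 and 6.03 RPKM and its Setd1a+/- levels 5.78, 5.24, 5.35, 4.77 and 5.52 RPKM. At P70 they were 5.01, 5.13, 6.28, 6.75 and 5.86 RPKM against 5.33, 4.87, 4.85, 4.73 and 5.67 RPKM. Both sets overlapped. E2f1 passed the threshold when 1 of 3 single libraries was left out (adjusted p = 0.0418 without replicate 1 of Setd1a+/- at E14, 0.0370 without replicate 2 of wild type at E14 and 0.0426 without replicate 4 of wild type at E18), and without replicate 2 of P7 its adjusted p was 0.146. In the other direction the smallest p values belonged to Ccnd1 (0.07 ± 0.06 SE) and Bub3 (0.011 ± 0.024 SE), neither called. With 1 library left out at a time Ccnd1 ran from 0.042 (without replicate 2 of wild type at E14) to 0.091 (without replicate 5 of the same group), and Bub3 from 0.0048 (without its replicate 3) to 0.019 (without its replicate 5).

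At E14 no member passed, against 0.129% of all genes, and none had an unadjusted p under 0.05, against 11.6%. The median difference was 0.0082, with 22 of 49 below 0, beside −0.029 over all genes. Ccnd1 had the smallest p there (0.20 on the log2 scale, 95% interval −0.06 to 0.46, edgeR adjusted p = 0.61), with 21.9, 12.8, 21.02, 23.6 and 29.6 RPKM in wild type and 27.6, 27.5, 16.001, 26.7 and 27.6 RPKM in Setd1a+/-, 1 library in each genotype lying well below the rest. With 1 library left out at a time the difference ran from 0.062 (without wild-type replicate 2, the low one) to 0.34 (without wild-type replicate 5). For Top2a at this age the interval of the difference was −0.48 to 0.42. Without Setd1a+/- replicate 2 the members' median was 0.044, with 5 of 49 below 0 and no member at an unadjusted p under 0.05, and the part of its marker sums was not tested.

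At E18 no member passed, against 0.11% of all genes, and 1 had an unadjusted p under 0.05, against 11.4%. This was Cdk2, the kinase partner of cyclins E and A, with 3.16, 3.15, 2.79, 2.50 and 2.66 RPKM in wild type and 2.57, 2.38, 2.12, 2.06 and 2.17 RPKM in Setd1a+/- (−0.34 on the log2 scale, 95% interval −0.63 to −0.04, edgeR adjusted p = 0.374). The highest Setd1a+/- value lay above the lowest wild-type value. The median of the 49 was −0.13, with 45 below 0, and that of all genes 0.017. Without wild-type replicates 3 and 4, left out together, the median was −0.21, with 48 below 0, and 1 member again had an unadjusted p under 0.05. The part of their marker sums was not tested.

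At P7 no member passed, against 0.735% of all genes, and 30 were lower in Setd1a+/- at an unadjusted p under 0.05, against 7.43% of all genes. The median difference was −0.43, with 48 of 49 below 0, and that of all genes −0.0037. E2f8 had the smallest p (−0.93, 95% interval −1.43 to −0.43, edgeR adjusted p = 0.0807). Its levels were 0.484, 1.62, 0.351, 0.594 and 0.376 RPKM in wild type and 0.398, 0.381, 0.358, 0.292 and 0.380 RPKM in Setd1a+/-. The value of 1.62 belongs to wild-type replicate 2, and the other 4 wild-type libraries overlapped with Setd1a+/-.

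Without that library the median difference at P7 was 0.025, with 19 of 49 below 0, a range of −0.32 to 0.23 and no member at an unadjusted p under 0.05. Over all genes, 7 of 16396 passed in that fit. Conversely E2f8 and Ube2c passed when wild-type replicate 1, 3 or 5 was left out and replicate 2 kept (edgeR adjusted p from 0.0162 to 0.0442). How many of all genes passed in those fits is not given here.

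Wild-type replicate 2 was the highest of the 10 P7 libraries in 48 of the 49 genes, all but Ccne1, where it was the highest for 31.1% of all tested genes. Its level divided by the mean of the other 9 had a median of 2.70 over the members and 1.00 over all genes. The ratios ran from 1.12 for Ccne1, 1.14 for Bub3 and 1.32 for Ccnd1 to 4.15 for Bub1, 4.20 for Ccnb1 and 4.21 for Ube2c, and 38 members were over 2. The summed level was 2.30 times the mean of the other 9.

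Marker sums of several cell types also differed in wild-type replicate 2. The sum of oligodendrocyte precursor markers did not, with 389.35 CPM inside the others' range of 355.12 to 389.61 CPM. By gene, Pdgfra, Olig2 and Sox10 were above the others' ranges and Cspg4 and Olig1 below them. Intermediate progenitor markers were at 154 CPM against 20.7 to 66.6 CPM, with Insm1 at 129 CPM against at most 15.9 CPM but Eomes at 12.8 CPM inside the others' range of 2.57 to 46.4 CPM. Radial glia markers were at 676 CPM against 483 to 563 CPM, and of the 7 genes Pax6 (100.6 CPM against at most 20.9), Hes5 and Fabp7 were above the others' range, Sox2, Hes1 and Nes inside it and Emx2 (6.55 CPM against at least 8.79) below it. Neuron markers were at 4828 CPM against 6693 to 7184 CPM, and markers of ventral forebrain and olfactory bulb neuroblasts at 65.4 CPM against 184 to 359 CPM. All 4 choroid plexus markers were highest there. So were all 12 cerebellar genes, with Barhl1 at 84.8 CPM against at most 0.65 CPM. That list was chosen after the values had been seen, so its agreement is no separate evidence. The part of these cell types in the members' levels was not tested.

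**Figure D4:**
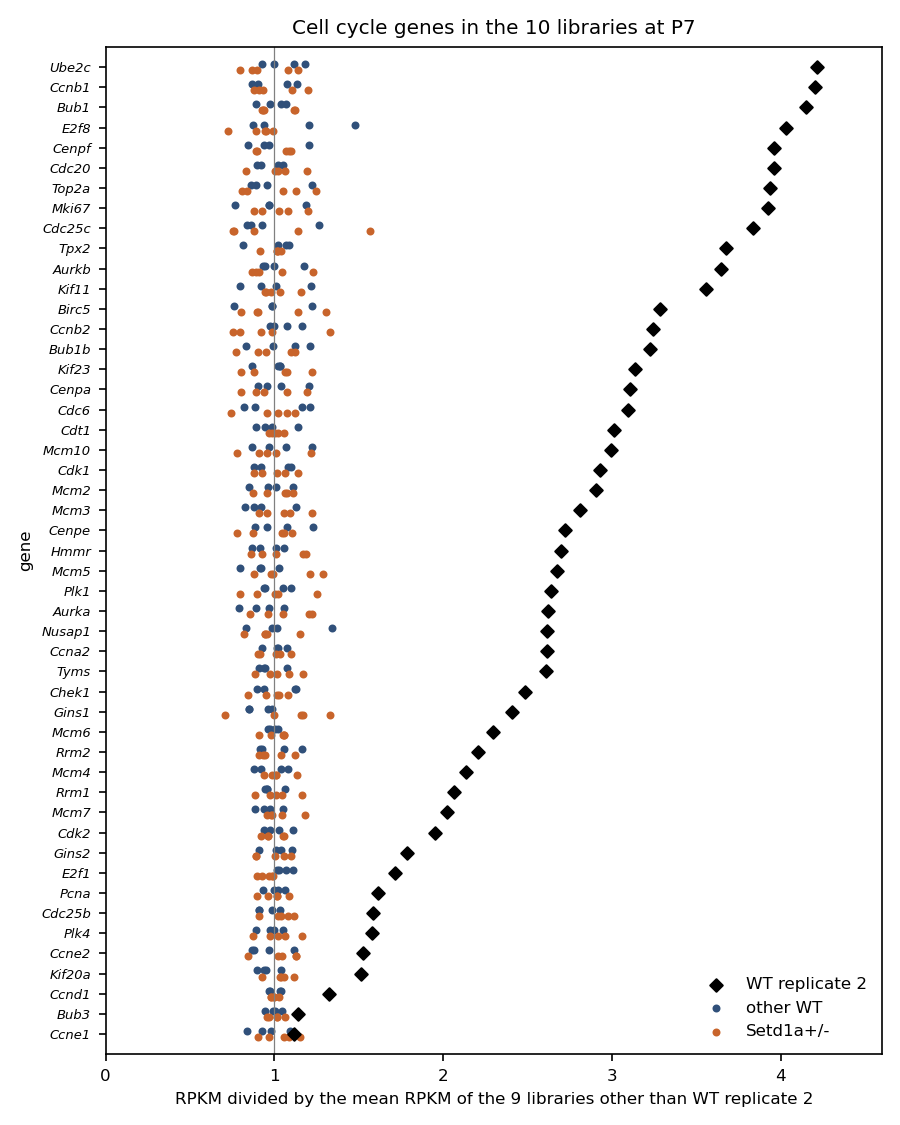
Level of each of the 49 genes in the 10 P7 libraries, divided by the mean RPKM of the 9 libraries other than WT replicate 2 (linear scale, 1 marks that mean), with black diamonds for WT replicate 2, blue for the other 4 WT mice and orange for Setd1a+/-. The diamonds run from 1.12 (Ccne1) to 4.21 (Ube2c), and the blue and orange points lie around 1.

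At P35 no member passed, against 0% of all genes, and none had an unadjusted p under 0.05, against 3.37%. The median was 0.036, beside 0.0048 over all genes. Cenpe, a kinetochore motor, had the smallest p (0.42, 95% interval −0.03 to 0.86, edgeR adjusted p = 1), with 0.250, 0.179, 0.218, 0.191 and 0.177 RPKM in wild type and 0.262, 0.301, 0.234, 0.269 and 0.288 RPKM in Setd1a+/-. The groups overlapped by the highest wild-type library.

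At P70 no member passed, against 0.233% of all genes, and 2 had an unadjusted p under 0.05, against 6.55%. Mcm10, which joins the helicase as origins fire, was lower (−0.65, 95% interval −1.20 to −0.10, edgeR adjusted p = 0.634), with 0.151, 0.132, 0.104, 0.136 and 0.237 RPKM in wild type and 0.121, 0.0820, 0.0551, 0.0681 and 0.162 RPKM in Setd1a+/-. These levels are near the low end of the list and overlapped. With 1 library left out at a time the difference ran from −0.90 (without Setd1a+/- replicate 5) to −0.42 (without wild-type replicate 5). Ccnd1 was higher (0.29, 95% interval 0.03 to 0.55, edgeR adjusted p = 0.703), with 14.1, 14.4, 18.7, 12.7 and 13.4 RPKM against 20.6, 16.6, 17.9, 19.6 and 15.04 RPKM. The median of the members was 0.09 and that of all genes 0.0031. Some marker sums of Setd1a+/- at P70 also reached beyond wild type. Endothelial and pericyte markers ran to 397.6 CPM (replicate 2), against at most 324 CPM. Meningeal markers ran to 106.3 CPM (replicate 2, at most 53.0 in wild type) and choroid plexus markers to 35.1 CPM (replicate 3, at most 10.3). Erythroid markers ran lower, from 59.5 to 130.7 CPM against 68.95 to 197.7 CPM. The part of these sums was not tested.

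The test of whether the genotype difference changed with age passed for no member, against 0% of all genes (edgeR, adjusted p under 0.05). At an unadjusted p under 0.05 it found 2 members, against 6.72% of all genes, E2f8 (edgeR adjusted p = 0.588) and Cenpe (adjusted p = 0.726). Without wild-type replicate 2 of P7 neither had an unadjusted p under 0.05 (edgeR adjusted p = 0.847 and 0.825).

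**Figure D5:**
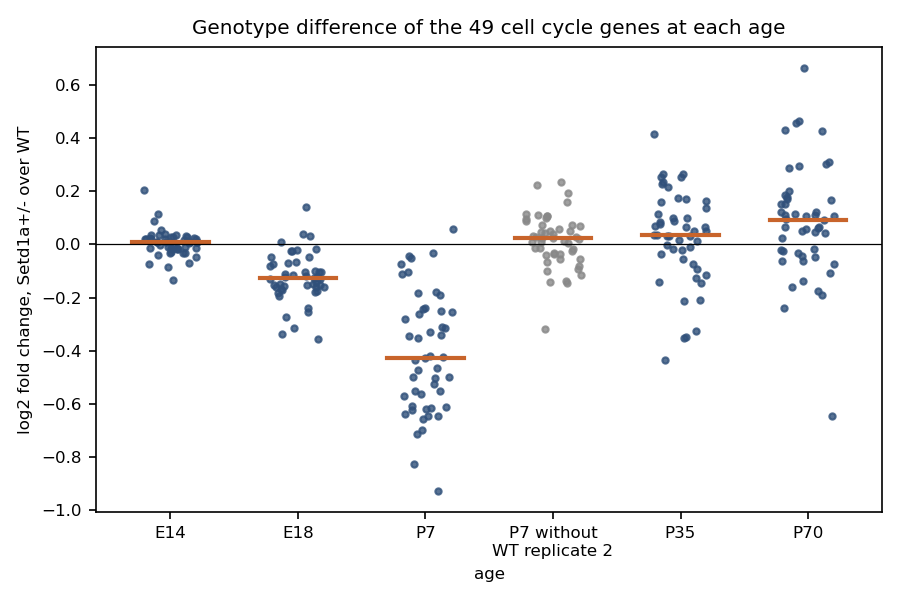
Log2 fold change of Setd1a+/- over WT for each of the 49 genes at each age (blue points) and at P7 without WT replicate 2 (grey points), with an orange line at the median. Medians are 0.0082 at E14, −0.13 at E18, −0.43 at P7, 0.025 at P7 without that library, 0.036 at P35 and 0.09 at P70.

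Among the 113 other cell cycle genes tested, 36 were lower at P7 at an unadjusted p under 0.05, against 7.43% of all genes, none was higher, and none passed the threshold, with a median of −0.17. Without wild-type replicate 2 of P7, 1 was lower and 2 were higher, none passed, and the median was 0.033. None passed at the other ages either (edgeR). At an unadjusted p under 0.05 there were 2 at E14 (Ccnd3 higher, Orc5 lower), against 11.6% of all genes, 3 at E18 (Chaf1a higher, Asf1b and Orc5 lower), against 11.4%, 2 at P35 (Chaf1a and Pold2, both higher), against 3.37%, and 3 at P70 (Kif20b and Sgo1 higher, Orc5 lower), against 6.55%.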

How the data were processed

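The deposited values are raw counts of reads per gene, 1 table per mouse. Per the file headers and the submitters' processing notes, the authors trimmed reads with Trimmomatic, checked them with FastQC, aligned them to GRCm38 with STAR and counted exons of the Ensembl annotation with featureCounts, without strand and with reads that overlap several genes given to each. The 49 genes and all other gene lists were chosen with earlier results of these data known. Of 55487 genes, 55141 were found in GENCODE vM21, and protein-coding genes passing edgeR's filterByExpr (minimum count 10, groups of 5) were kept, giving 16330. In edgeR 4.0.16 (R 4.3.3) counts were scaled by TMM and tested by the quasi-likelihood F-test, with Benjamini-Hochberg adjustment over all tested genes of each comparison and a threshold of 0.05. The genotype effect was fitted with age as a covariate, and the effects at each age, the steps in age and the interaction were taken from a fit of the 10 groups. Levels are RPKM over exonic bases or CPM, both TMM-scaled, and errors are SD over mice or SE of the fit.

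Members named with values were, in each of 8 role groups, the one highest at E14, then those of smallest p in the genotype tests, and the 3 with the largest and the 3 with the smallest change from E14 to P70. Others are named where a count needed it. No 2 libraries of a group agreed within sampling noise (lowest chi-square per degree of freedom 4.89). On data simulated from these libraries, 100 of 16330 genes were changed by 1 and 100 by 0.3 on the log2 scale. The test recovered 93% and 73% for the genotype effect over all ages, 84% and 41% at P7, and 82% and 43% from P35 to P70. For the interaction, with genes changed at P7, it recovered 77% and 16%. The changed genes were drawn at random from all tested genes, and no simulated library was shifted like wild-type replicate 2 at P7. These shares therefore do not give the recovery for the members. Alternatives were DESeq2 1.42.0, limma 3.58.1 (voom), other scalings and filters, RNA integrity as a covariate, a replicate block and leaving out libraries. Promoter words were searched with Python 3.11.15.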

Additional observations from a re-analysis of the deposited data

Results flagged for a closer look

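In 9 measures (the summed level and the most abundant member of each role group), each of the 10 groups of 5 mice was checked for a library far from its neighbours, and 15 of the 90 groups held one. Chance gives about 1 in 20 for separate checks. The 90 are not separate, since the measures share libraries and the summed level includes the 8 genes. Of the 15 flags, 9 were the same library. Wild-type replicate 2 at P7 was the highest library of its group in all 9, with a summed level of 1342.5 CPM and RPKM of 9.47 for Top2a, 11.5 for Ccna2, 8.83 for Cdc25b, 30.5 for Pcna, 12.4 for Rrm2, 12.9 for Cdc20, 4.94 for Bub1b and 7.63 for Tpx2. Wild-type replicate 3 at P70 was the lowest for Top2a (0.155 RPKM, the others 0.304 to 0.348) and for Cdc20 (0.445 RPKM, the others 0.696 to 0.779). Wild-type replicate 4 at E18 was the lowest for Cdc20 (10.1 RPKM, the others 13.8 to 15.01). Among Setd1a+/- libraries, replicate 3 at P35 was the highest for Ccna2 (2.49 RPKM, the others 2.26 to 2.31), replicate 4 at P70 the highest for Bub1b (0.864 RPKM, the others 0.436 to 0.550) and replicate 4 at P7 the lowest for Tpx2 (1.90 RPKM, the others 2.11 to 2.16).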

How the results depend on the processing

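No direction of a called value reversed in 1444 alternative values of 53 results, of which 1348 kept their side of the threshold or stayed within 1.5 times a count. No genotype or interaction value was called with all libraries, so only changes with age could have reversed. The P7 genotype median, which was not tested, changed sign from −0.43 to 0.026 with the 3 libraries left out. With limma-voom, members at an unadjusted p under 0.05 numbered 2 for the genotype effect over all ages, 3 at P7 and 1 at P70, and the P7 median was −0.32. With DESeq2 they numbered 1 at P35 and 4 for the interaction, and with RNA integrity as a covariate 0 at E18, 1 at P70 and 1 for the interaction. The same replicate numbers did not pair the genotypes (correlations of −0.204 to 0.46, not all above 0.1, and not every library matched its own number best). With a replicate block, 16 members had an unadjusted p under 0.05 at P7 and 2 at P35, the P7 median was −0.31, and no count of called members moved.

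Without the Xist libraries and wild-type replicate 2 of P7, a setting of 3 libraries, members at an unadjusted p under 0.05 numbered 1 (E14), 4 (E18), 0 (P7), 4 (P35) and 5 (P70), where all genes called at E14 went from 21 to 1164 of 16382, the members' median over all ages was 0.026 (−0.11 with all libraries), their E14 median was 0.091, the P7 median was 0.026, 5 members rose from P7 to P35 and 4 fell from P35 to P70. With scaling by library size only, 1 rose from P7 to P35. With the same 3 libraries left out, 46 members fell and 1 rose in Setd1a+/- from E18 to P7, where 69.5% of all genes were called. From P7 to P35 there, 42 fell and 4 rose, where 69.6% of all genes were called. The E2F-type words were in 4 promoters in the shorter window. The cause of these shifts was not tested.

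With 1 library left out at a time, called members ranged from 0 to 2 over all ages and from 0 to 2 at P7. The shares of all genes in these fits are not given here, beyond those called without wild-type replicate 2 of P7. The counts in this paragraph therefore have no background. Members at an unadjusted p under 0.05 ranged from 2 to 8 over all ages, 0 to 1 in each of E14, E18 and P35, 0 to 38 at P7, 0 to 2 at P70 and 1 to 12 for the interaction (12 without wild-type replicate 1 of P7, 7 without replicate 5). The P7 median ranged from −0.53 to 0.025, with the last value without replicate 2, and members that rose from 1 to 2 from E18 to P7 and from 2 to 5 from P7 to P35. At P70 Bub1 rested on 5 to 23 counts per wild-type library, and the effect of depth on the low genes was not tested.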
